A study of Mus musculus with 2 samples.

Results

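The collagens, the laminins and the proteins that join them into basement membranes were followed in mouse embryos whose 2 copies of chromosome 18 came either both from the mother (maternal uniparental disomy, matUPD18) or both from the father (patUPD18). Members were the probe sets annotated to exactly 1 gene symbol of the form Col, number, a, number, or Lama, Lamb or Lamc plus a number, or to Nid1, Nid2, Hspg2, Fn1 or Sparc. This gave 112 of the array's 45101 probe sets, which read 57 of 18193 named genes. Total RNA of whole embryos at 8.5 days post coitum was amplified, labelled and hybridised to 1 array per genotype, and neither the number of embryos pooled nor their strain background is stated in the labels. By label both kinds of embryo are disomic for chromosome 18 and differ in the parent that gave its 2 copies. The labels used here do not state the sex of the embryos. With 1 array per group there is no replicate check and no test, so every difference below describes these 2 arrays only.

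Collagens are triple helices of 3 chains. Fibrillar collagens pack into the cable-like fibrils of connective tissue. Collagen IV instead forms a sheet-like network that, with a laminin network, makes the basement membrane under epithelia and around vessels. Laminins are trimers of an alpha, a beta and a gamma chain, nidogens bridge laminin to collagen IV, and perlecan (Hspg2) is the main heparan sulphate proteoglycan of the sheet. In the early embryo basement membranes surround the neural tube, somites, gut and heart and underlie the yolk sac endoderm. Of the member genes, 11 were classed as fibrillar (types I, II, III, V, XI, XXIV and XXVII), 21 as basement membrane (collagens IV, XV and XVIII, laminins, nidogens and perlecan) and 25 as other (the remaining collagens, Fn1 and Sparc).

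The genes of collagen IV lie as head-to-head pairs that are read in opposite directions, and the start regions of both pairs measurable here are shown because the paired chains can be compared within each pair. The windows run from 250 bases before to 50 after the annotated start in RefSeq on GRCm38.p6. Col4a1 is on the minus strand at chr8:11312777-11313076, Col4a2 on the plus strand at chr8:11312555-11312854, Col4a6 on the minus strand at chrX:141474027-141474326 and Col4a5 on the plus strand at chrX:141475169-141475468. Each is written 5′ to 3′ in its gene's direction, and capitals mark the CCAAT box (CCAAT or ATTGG) and the GC box (GGGCGG or CCGCCC).
Col4a1: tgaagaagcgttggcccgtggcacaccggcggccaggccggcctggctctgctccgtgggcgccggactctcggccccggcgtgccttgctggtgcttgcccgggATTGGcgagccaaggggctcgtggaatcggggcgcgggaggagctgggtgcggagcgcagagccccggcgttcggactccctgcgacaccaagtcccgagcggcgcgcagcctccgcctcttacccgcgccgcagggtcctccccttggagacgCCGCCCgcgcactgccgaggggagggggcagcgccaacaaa
Col4a2: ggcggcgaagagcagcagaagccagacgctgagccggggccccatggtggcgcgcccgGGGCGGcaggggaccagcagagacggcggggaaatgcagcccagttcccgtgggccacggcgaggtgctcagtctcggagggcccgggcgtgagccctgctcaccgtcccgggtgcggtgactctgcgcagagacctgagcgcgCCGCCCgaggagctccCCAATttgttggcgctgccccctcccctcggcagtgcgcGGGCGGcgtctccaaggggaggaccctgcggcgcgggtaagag
Col4a6: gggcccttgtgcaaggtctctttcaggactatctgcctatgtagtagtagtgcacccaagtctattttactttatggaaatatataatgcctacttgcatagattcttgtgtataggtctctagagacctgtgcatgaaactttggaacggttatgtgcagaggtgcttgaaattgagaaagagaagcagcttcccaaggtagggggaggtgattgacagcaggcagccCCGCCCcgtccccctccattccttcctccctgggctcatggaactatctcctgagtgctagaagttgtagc
Col4a5: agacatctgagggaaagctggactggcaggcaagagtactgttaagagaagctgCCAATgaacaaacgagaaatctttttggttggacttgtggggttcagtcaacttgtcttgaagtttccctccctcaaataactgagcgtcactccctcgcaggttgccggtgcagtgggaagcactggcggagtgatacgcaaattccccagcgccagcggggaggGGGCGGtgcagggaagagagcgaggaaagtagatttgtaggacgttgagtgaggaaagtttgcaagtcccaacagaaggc
The Col4a1 and Col4a2 windows overlap by 78 bases, in which each is the reverse complement of the other, and their annotated starts are 21 bases apart. The Col4a6 and Col4a5 starts are 1343 bases apart and their windows do not overlap. The GC content was 74% for Col4a1, 73.7% for Col4a2, 48.3% for Col4a6 and 52.7% for Col4a5. The table held 45 windows for 41 of the 57 member genes. A GC box lay in 27 of the 45 member windows (60%), against 35.7% of all 32851 windows of the table. A CCAAT box lay in 15 (33.3%, against 37.4% of all windows). A TATA box (TATAAA or TTTATA, on either strand) lay in 5 (11.1%, against 13.6%). None of the 4 windows printed here holds that TATA sequence, and in them no marked motif overlaps another. A match to these letters is a description and not a shown binding site.

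Signals are MAS5 intensities in arbitrary units, scaled by the authors to a common mean. A probe set was called measurable where its higher signal reached the 60th percentile of that array (190.1 on the matUPD18 array, 184.9 on the patUPD18 array). Of the 112 member probe sets, 54 were measurable, and they read 37 of the 57 genes. A gene is represented by its probe set of highest mean signal. Log2 ratios are matUPD18 over patUPD18, taken after raising signals under the 40th percentile (84.2 and 82.5) to it, and a fold divides the larger signal by the smaller. Signals are compared between the arrays for the same probe set and not between probe sets, whose probes bind with different strength.

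None of the 37 measurable member genes differed by 2-fold or more between the arrays. Of all 10484 measurable genes, 2.7% passed 2-fold towards matUPD18 and 1.78% towards patUPD18. By probe set the member count was likewise 0 of 54 in each direction, against 3.27% and 1.95% of 16696 measurable probe sets with 1 symbol. At 1.5-fold, 3 member genes were higher in matUPD18 (Col4a5, Nid2 and Col1a1) against 9.97% of all genes, and 2 were higher in patUPD18 (Col3a1 and Col16a1) against 8.74%. With so few members, these counts of 0 and of 3 and 2 are close to the shares of the array as a whole. The member genes had a median absolute log2 ratio of 0.24, and all measurable genes one of 0.29. The largest ratio among the members, 0.94 for Col4a5, lay just inside the 2-fold line.

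The fibrillar and the basement membrane classes had nearly the same median. The 8 measurable fibrillar genes had a median log2 ratio of 0.11 with an interquartile range of -0.07 to 0.29, and 6 of them read higher in matUPD18. The 14 measurable basement membrane genes had a median of 0.10 with an interquartile range of -0.22 to 0.41, and 8 read higher in matUPD18. The difference between these medians was 0.01. The 15 measurable genes of the other class had a median of -0.02, and 6 read higher in matUPD18. All measurable genes together had a median of -0.04. The only technical yardstick is the disagreement among measurable probe sets that read 1 gene, whose log2 ratios had a pooled standard deviation of 0.44 over 4003 genes and of 0.30 over the 15 member genes with several. This spread does not include differences between embryos. In either class the single genes ranged far more widely than the classes differed.

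**Figure D1:**
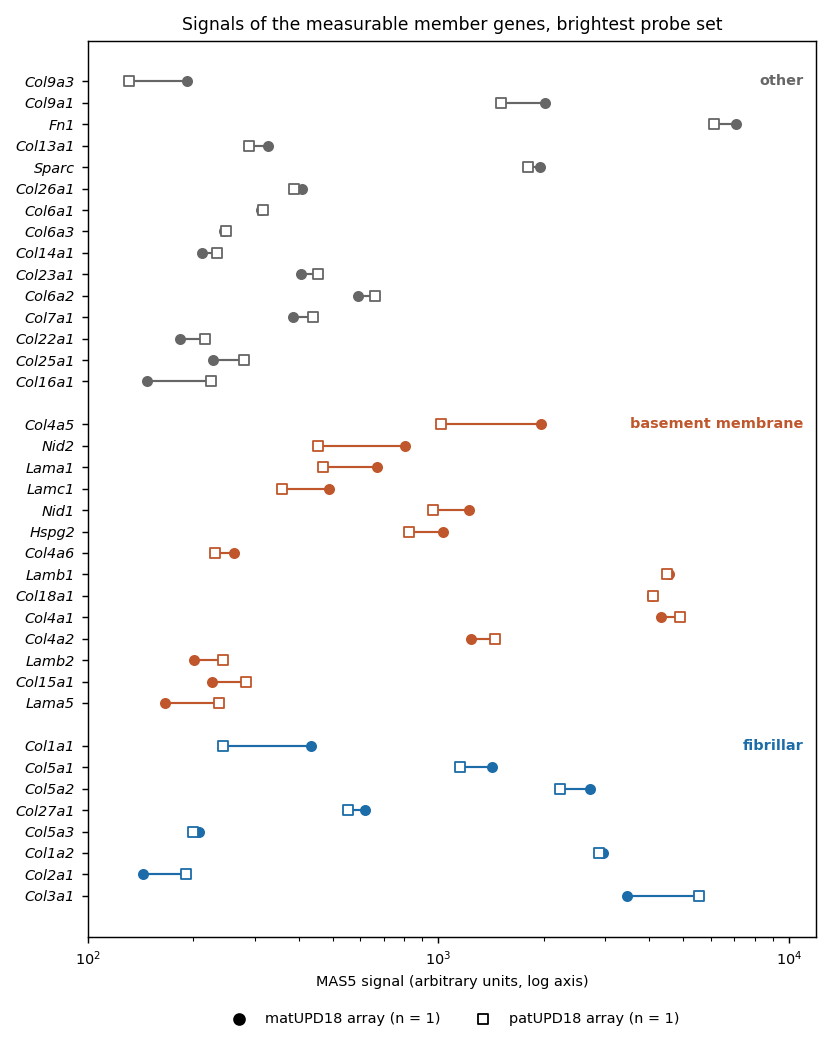
MAS5 signal (horizontal log axis, arbitrary units) of the 37 measurable member genes by their brightest probe set, with the matUPD18 array as filled circles and the patUPD18 array as open squares (1 array each, so no error bars). The pairs of points lie close together in all 3 classes, with the widest gaps for Col4a5 (1960 and 1019), Col1a1 (433.0 and 243.0) and Nid2 (801.9 and 454.8) on the side of matUPD18 and for Col3a1 (3456 and 5565) on the side of patUPD18.

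The 2 chains of collagen I had unlike ratios. Collagen I, the main fibril of bone, skin and tendon, is built from the products of Col1a1 and Col1a2. Col1a1 read 433.0 in matUPD18 and 243.0 in patUPD18, 1.78-fold higher in matUPD18 (log2 ratio 0.83), and its other probe set lay under the floor on both arrays. Col1a2 read 2956 in matUPD18 and 2878 in patUPD18, a log2 ratio of only 0.04. Its other measurable probe set read 386.7 and 322.9 (0.26), so the Col1a2 signal was nearly level where that of its partner chain was higher in matUPD18. The Col1a1 log2 ratio was the 38th largest in size of the 524 genes of like mean signal.

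Col3a1, the chain of collagen III in extensible tissues and vessel walls, was the fibrillar gene furthest towards patUPD18. It read 3456 in matUPD18 and 5565 in patUPD18, 1.61-fold higher in patUPD18 (log2 ratio -0.69). Its other measurable probe set read 422.9 and 486.6, the same direction with a ratio of -0.20. In size the first of these ranked 51st among 524 genes of like signal. Col5a2, which in the RefSeq gene order is the next protein-coding gene to Col3a1 on chromosome 1, had the opposite direction. It read 2718 in matUPD18 and 2227 in patUPD18 (0.29), and its other probe set read 837.1 and 474.4 (0.82).

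Collagen V starts and limits the growth of collagen I fibrils, and its alpha chain genes were all slightly higher in matUPD18. Col5a1 read 1426 in matUPD18 and 1152 in patUPD18 (0.31), and its other measurable probe set had a ratio of 0.12. Col5a3 read 208.1 and 199.6 (0.06). With Col5a2 these 3 genes ran from 0.06 to 0.31 by their brightest probe sets, all under the pooled standard deviation of 0.44 over all genes. Col27a1, a fibrillar collagen of cartilage, read 616.6 and 551.5 (0.16) and had a second ratio of 0.30. Col2a1, the collagen of cartilage that is also made in the notochord, read 144.0 in matUPD18 and 191.0 in patUPD18 (-0.41), just above the measurable limit on the patUPD18 array. The cartilage collagen XI genes Col11a1 and Col11a2 and the fibrillar Col24a1 were not measurable. A Col11a1 probe set of 169.5 in matUPD18 and 70.8 in patUPD18 fell just short of the limit with a log2 ratio of 1.04, and the other Col11a1 probe set, at 157.8 and 116.7, had one of 0.44.

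In the basement membrane class the ubiquitous collagen IV chains Col4a1 and Col4a2 were close to each other and slightly lower in matUPD18. Col4a1 read 4335 in matUPD18 and 4913 in patUPD18 (-0.18), while its other measurable probe set, at 797.5 and 785.5, was level (0.02). Col4a2 read 1237 and 1455 (-0.23). This pair, whose start windows overlap in the sequences above, thus had ratios that differ by less than either pooled standard deviation.

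The X-linked collagen IV genes Col4a5 and Col4a6, whose chains form a specialised network in kidney, lung and smooth muscle, were both higher in matUPD18. Col4a5 read 1960 in matUPD18 and 1019 in patUPD18, 1.92-fold higher, which was the 16th largest ratio in size of 525 genes of like signal. Its other measurable probe set read 279.8 and 260.4 and had a ratio of only 0.10. Col4a6 showed the reverse order of probe sets, with 260.7 and 230.7 (0.18) by the brightest and 204.4 and 115.1 (0.83) by the other. All 4 probe sets had the same direction, but the ratios within each gene were further apart than the pooled standard deviation of 0.44. Other X-linked genes also differed between the arrays. Of 365 measurable X-linked genes, 64 (17.5%) passed 1.5-fold towards matUPD18, against 9.97% of all genes, and 29 (7.95%) towards patUPD18, against 8.74%. Their median log2 ratio was 0.03, and Xist, the RNA of the inactive X chromosome, read 1568 in matUPD18 and 128.1 in patUPD18. The labels used here give no sex for the embryos. The part of this difference, or of sex, in the Col4a5 and Col4a6 values was not tested. The collagen IV genes Col4a3 and Col4a4, expressed in specialised membranes such as that of the kidney glomerulus, were not measurable.

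**Figure D2:**
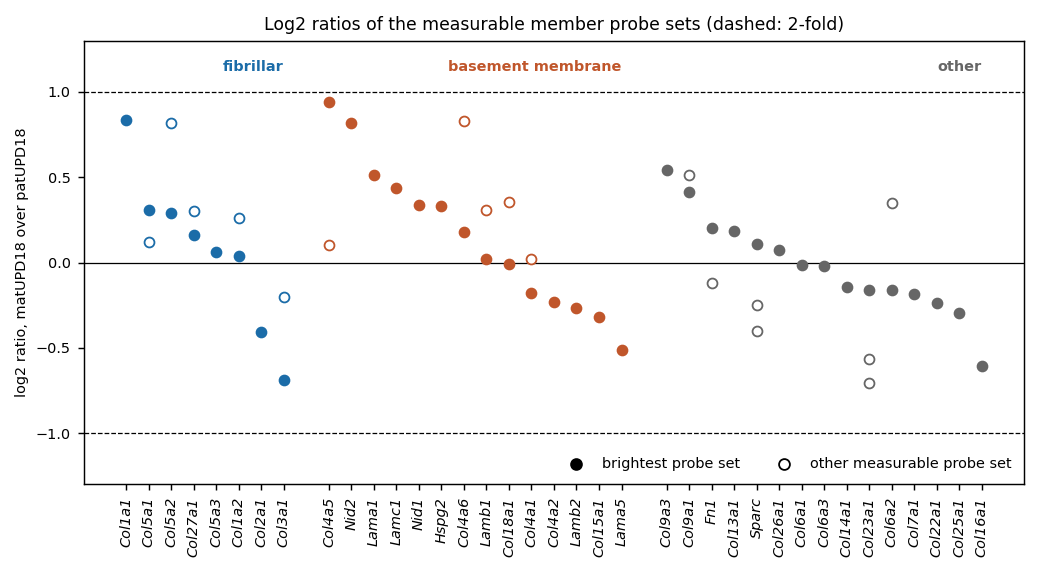
Log2 ratio of matUPD18 over patUPD18 (vertical axis) for each measurable probe set of the 37 member genes, sorted within class, with filled points for the brightest probe set of a gene and open points for its other measurable ones; dashed lines mark 2-fold and each array is n = 1. All 54 points lie between the dashed lines, and the open points of Col4a5, Col4a6 and Col5a2 lie well away from the filled points of the same genes.

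The chains of the principal laminin of the early embryo, made from Lama1, Lamb1 and Lamc1, all read higher in matUPD18, though Lamb1 only marginally. Lama1 read 670.4 in matUPD18 and 470.4 in patUPD18 (1.43-fold, log2 ratio 0.51). Lamc1, whose gamma chain is shared by most laminins, read 487.0 and 359.0 (1.36-fold, 0.44). Lamb1 read 4554 and 4483 (0.02), and its other measurable probe set read 543.4 and 439.0 (0.31). None of the 3 passed 1.5-fold. Among genes of like signal their ratios ranked 112th of 524 in size for Lama1, 161st of 525 for Lamc1 and 505th of 524 for Lamb1. Lama5 and Lamb2, chains of the laminins that take over in maturing basement membranes, had the opposite direction. Lama5 read 165.8 in matUPD18 and 236.9 in patUPD18 (-0.52), but a probe set of it below the measurable limit, at 165.5 and 132.4, had a ratio of 0.32. Lamb2 read 201.2 and 242.5 (-0.27), a ratio smaller in size than both pooled standard deviations. Among 524 genes of like low signal each, the Lama5 ratio ranked 154th in size and the Lamb2 ratio 266th.

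The proteins that link the networks all leaned to matUPD18. Nid2 read 801.9 in matUPD18 and 454.8 in patUPD18, 1.76-fold higher (0.82), the 42nd largest ratio in size of 524 genes of like signal. Nid1 read 1227 and 969.7 (1.27-fold, 0.34), and its other 2 probe sets lay under the floor on both arrays. Hspg2 read 1035 and 823.4 (1.26-fold, 0.33). In size the Nid1 ratio ranked only 207th and the Hspg2 ratio only 222nd, each among 524 genes of like signal. Of these 3 ratios that of Nid2 alone was above the pooled standard deviation of 0.44 over all genes, while all 3 were above the 0.30 over member genes. Nid2 has a single probe set here. The collagens of the basement membrane zone with heparan or chondroitin sulphate chains did not share that direction. Col18a1, the source of endostatin, read 4082 in matUPD18 and 4110 in patUPD18 (-0.01, turning to 0.01 after quantile and 0.06 after loess scaling), with 0.36 by its other probe set, and Col15a1 read 227.0 and 283.0 (-0.32).

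Lama3, whose chain anchors epidermis to its basement membrane, is the single member on chromosome 18, with 3 protein-coding genes between it and Impact in the RefSeq gene order. It was not measurable. Its probe sets read 106.4 and 61.8 in matUPD18 and 123.5 and 83.7 in patUPD18. For the first, 123.5 is 1.16-fold above 106.4 (log2 ratio -0.22), and for the other the matUPD18 signal lay under the floor. Impact, the paternally expressed imprinted gene that serves as a check on the labels, read 328.4 in matUPD18 and 2466 in patUPD18 by its brightest probe set. A dimmer measurable Impact probe set, at 268.2 and 205.3, leaned the other way.

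In the other class, fibronectin (Fn1), an adhesive protein needed for mesoderm and heart formation, read 7069 in matUPD18 and 6134 in patUPD18 (0.20), with -0.12 by its other measurable probe set. Sparc, a collagen-binding protein that is abundant in parietal endoderm, read 1946 and 1804 (0.11), but its other 2 measurable probe sets had ratios of -0.25 and -0.40. The Sparc direction therefore turned with the probe set. The chains of collagen VI, which forms beaded filaments around cells, were level. Col6a1 read 313.2 and 316.1 (-0.01), Col6a3 read 244.2 and 247.9 (-0.02), and Col6a2 read 589.7 and 660.5 (-0.16) with 0.35 by its other probe set.

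Collagen IX decorates the surface of cartilage fibrils. Col9a1 read 2021 in matUPD18 and 1515 in patUPD18 (1.33-fold, 0.42), and its other probe set, at 466.8 and 326.6, had a similar ratio of 0.52. Col9a3 read 191.5 and 131.4 (0.54), just at the measurable limit, and 327 of 525 genes of like low signal had ratios at least as large in size. With the floor at the 60th percentile the Col9a3 ratio was 0.05. Col16a1, of the same fibril-associated family, read 147.6 in matUPD18 and 224.5 in patUPD18, 1.52-fold higher in patUPD18 (-0.61). Its ratio ranked only 303rd in size among 525 genes of like signal. The 3 probe sets of Col23a1, a transmembrane collagen, had ratios of -0.16, -0.56 and -0.70, all towards patUPD18. The remaining measurable genes, namely Col7a1 (anchoring fibrils of skin), Col13a1, Col14a1, Col22a1, Col25a1 and Col26a1, had ratios from -0.29 to 0.19.

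The 20 genes without a measurable brightest probe set were Col11a1, Col11a2, Col24a1, Col4a3, Col4a4, Lama2, Lama3, Lama4, Lamb3, Lamc3, Col6a4, Col6a5, Col8a1, Col8a2, Col9a2, Col10a1, Col12a1, Col17a1, Col19a1 and Col20a1. They include the skin collagen Col17a1, the growth plate collagen Col10a1 and the laminin chain of muscle, Lama2. Of the 112 member probe sets, 41 lay under the floor on both arrays, and for these no ratio can be read. Probe sets of the same gene often gave different pictures. Of the 15 member genes with several measurable probe sets, 10 had the same direction in all and 5 (Col18a1, Col4a1, Col6a2, Fn1 and Sparc) did not. The RNA amplification used copies from the 3' end, and whether the distance of a probe set from that end bears on these disagreements was not tested.

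The enzymes that modify and process collagen were level as a group. Of 27 genes matched, 19 were measurable and none passed 2-fold by its brightest probe set; their median log2 ratio was -0.02. A dimmer probe set of the prolyl hydroxylase gene P3h1 read 234.2 and 116.9, just past 2-fold, against a log2 ratio of 0.38 by its brightest. Mia3, which helps load collagen into transport carriers, was furthest towards matUPD18, at 886.1 against 546.7 (1.62-fold, 0.70). Pcolce2, an enhancer of procollagen cleavage, was furthest towards patUPD18, at 407.9 in matUPD18 and 570.7 in patUPD18 (1.40-fold, -0.48). The collagen chaperone gene Serpinh1 read 2623 and 2655 (-0.02), and P4ha1, of the prolyl hydroxylase that stabilises the triple helix, read 790.7 and 664.1 (0.25).

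Of 21 matched genes for receptors of collagen, laminin and fibronectin, 15 were measurable, with a median of -0.05. Of these, 1 passed 2-fold, towards patUPD18, against 1.78% of all measurable genes in that direction. Itgb3, an integrin beta chain of platelets and vessels, was that gene, at 105.0 in matUPD18 and 247.3 in patUPD18 (2.35-fold, -1.24), and 73 of 525 genes of like low signal had ratios at least as large in size. Itgb1, the beta chain of most collagen and laminin receptors, read 1313 and 1502 (-0.19). The laminin receptor chains differed in direction, with Itga3 at 810.3 and 614.7 (0.40) and Itga6 at 2202 and 2720 (-0.30), and a second Itga6 probe set at 0.14.

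Among 18 matched genes for other basement membrane proteins, 12 were measurable, with a median of 0.20, 6 on each side of 0. Npnt (nephronectin, an integrin ligand) was 2.14-fold higher in patUPD18, at 818.2 in matUPD18 and 1750 in patUPD18 (-1.10). It alone passed 2-fold in that direction, against 1.78% of all measurable genes. The other probe sets of Npnt that were measurable leaned the same way (-0.82 and -0.44), and its ratio was the 12th largest in size of 525 genes of like signal. In the other direction no gene passed 2-fold. Hmcn1 (hemicentin) was nearest to it, at 486.6 and 246.1 (1.98-fold, 0.98), followed by the netrin gene Ntn1 at 447.2 and 245.3 (0.87). The genes of the Fraser complex, which holds epidermis to dermis, were all higher in matUPD18, with Frem2 at 1913 and 1113 (0.78), Fras1 at 856.4 and 506.6 (0.76) and Frem1 at 639.2 and 474.5 (0.43).

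Of 16 matched interstitial matrix genes 12 were measurable, with a median of 0.10. The small collagen-binding proteoglycan gene Dcn was 2.59-fold higher in matUPD18, at 222.2 and 85.8. It alone passed 2-fold, against 2.7% of all measurable genes in that direction. Its patUPD18 signal lay just above the floor of 82.5. In size its ratio ranked 36th among 525 genes of like low signal. The furthest the other way was Bgn, a related proteoglycan, at 950.6 and 1058 (-0.15). Of 12 matched proteases and inhibitors 9 were measurable and all lay within 2-fold, with a median of 0.06. Mmp14, a membrane-bound collagenase, read 648.7 and 431.8 (0.59), and the inhibitor gene Timp2 read 1018 and 1584 (-0.64), although its other measurable probe sets had ratios of 0.25 and -0.42.

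**Figure D3:**
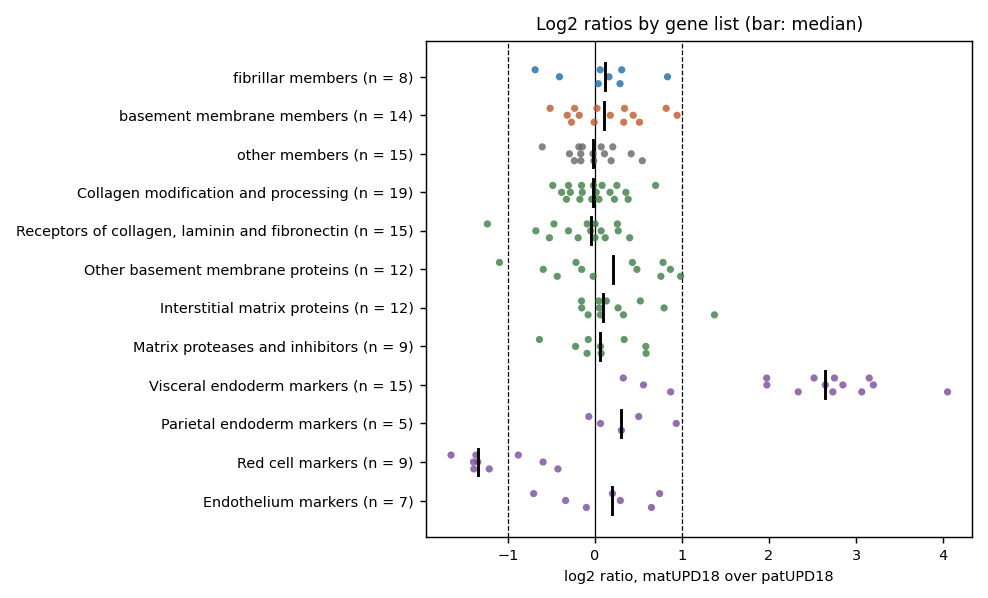
Log2 ratio of matUPD18 over patUPD18 (horizontal axis) for each measurable gene of the 3 member classes, 5 matrix gene lists and 4 cell type marker lists; a point is a gene, the black bar the median and dashed lines 2-fold. The member classes and matrix lists centre near 0, with medians between -0.05 and 0.20, whereas visceral endoderm markers centre at 2.65 and red cell markers at -1.35. All lists were chosen with earlier results of these data known.

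Markers of visceral endoderm and of red cells differed between the 2 arrays. These lists were chosen with earlier results of these data known, so their distance from 0 is not an independent result. Of 15 measurable visceral endoderm markers, 12 were at least 2-fold higher in matUPD18, against 2.7% of all measurable genes. The signal summed over all 15 was 38747 in matUPD18 and 7350 in patUPD18. Afp (12717 and 1914) and Ttr (11979 and 1349) gave the largest parts of the matUPD18 sum. Of this list, Ttr and Spink1 lie on chromosome 18. Most other measurable probe sets of these markers had the same direction, but those of Hnf4a (-0.24) and Lrp2 (-0.03, with 0.25 by another) did not all do so. Of 9 measurable red cell markers, 6 were at least 2-fold higher in patUPD18, against 1.78% of all measurable genes. The signal summed over all 9 was 46292 in matUPD18 and 71322 in patUPD18. Hbb-y (23063 and 30979, log2 ratio -0.43) and Hbb-bh1 (17620 and 26632, -0.60) gave the largest parts of both sums. Neither passed 2-fold by its brightest probe set, so the sums mainly show genes outside the 6. A dimmer probe set of each was past 2-fold towards patUPD18. In whole embryos fewer cells of a type and less RNA per cell cannot be told apart. Markers of parietal endoderm, which secretes large amounts of collagen IV, laminin and Sparc, were within 2-fold in all 5 measurable cases, with a median of 0.30 and sums over all 6 matched genes of 3356 and 2654. Fst gave the largest part of these sums, at 1765 and 1246 (0.50), but its other measurable probe set read 461.7 and 615.2 (-0.41). Thbd, the thrombomodulin gene, was the furthest of the parietal endoderm markers at 238.0 and 124.6 (0.93), and Sox7 read 224.8 and 236.0 (-0.07). The Thbd ratio ranked only 157th in size among 525 genes of like low signal. Of 7 measurable endothelial markers all lay within 2-fold, with a median of 0.20 and sums over 9 genes of 4322 and 3800. Heart muscle markers (median -0.08, 7 genes) and neural tube markers (0.13, 5 genes) also lay within 2-fold. Of 3 measurable notochord markers Chrd read 20.9 in matUPD18, under the floor, and 198.2 in patUPD18, at least 2.36-fold apart. Its ratio ranked 71st in size among 525 genes of like low signal. Of 4 matched trophoblast and decidua markers only Hand1, at 286.7 and 202.5, was measurable. The part of these tissues in the member ratios was not tested.

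The sign of the small differences rests on how the arrays are scaled. The 18 probe sets of the spiked BioB, BioC, BioDn and Cre controls were all lower on the matUPD18 array, with a median log2 ratio of -0.56. Scaling to them raised the median of all measurable genes to 0.52 and put 6 members (Col1a1, Col4a5, Col9a3, Lama1, Lamc1 and Nid2) at least 2-fold higher in matUPD18, against 15.6% of all genes. Under median, quantile and loess scaling no member passed 2-fold.

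**Figure D4:**
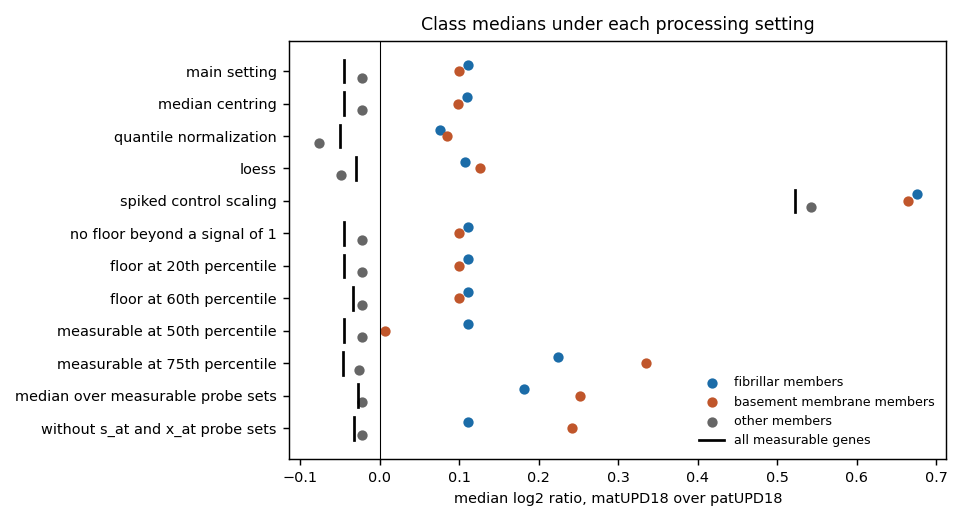
Median log2 ratio of matUPD18 over patUPD18 (horizontal axis) of the fibrillar, basement membrane and other member genes (coloured points) and of all measurable genes (black bars) under the main setting and 11 alternatives (1 array per genotype). The fibrillar and basement membrane points lie above the bar of all genes under each setting. The fibrillar minus basement membrane difference runs from -0.13 without probe sets that may match several transcripts to 0.10 with the measurable limit at the 50th percentile. Scaling to the spiked controls shifts members and all genes alike.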

How the data were processed

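Expression was measured on 1 Affymetrix array of the type the titles call 430 for each genotype. The deposited values are signal intensities per probe set, made with MAS5 and GCOS per the submitters' processing notes. Their versions and the genome build are not stated there. RNA was amplified with a RiboAmp kit and labelled with biotin, per the labels' protocols. The 2% trimmed mean was 500.003 and 500.004, which shows a common scaling target for the arrays, and no further scaling was applied. Of the probe sets, 34958 had 1 symbol in the platform annotation, 932 several and 9211 none, 51 of them among the 64 control probe sets. Symbols were updated through Entrez identifiers (34754 matched RefSeq, GRCm38.p6), and control probe sets were left out of gene counts. Genes of like signal are 20 equal groups by mean signal. The alternatives were other scalings, floors, limits, probe set rules and fold thresholds. Members, classes and gene lists were chosen with earlier results of these data known. Named were all measurable members, Lama3 and Impact, and of each matrix gene list the genes past 2-fold or else the furthest each way. Other genes (Thbd, Sox7, Fst, Hbb-y, Hbb-bh1, Serpinh1, P4ha1, P3h1, Chrd, Hand1, Itgb1, Itga6, Ntn1, Frem1, Frem2, Fras1 and Xist) were chosen after their values were seen. So were Afp, Ttr, Spink1, Hnf4a and Lrp2. The procedure was tried on simulated data with planted changes larger than any member ratio here. That trial does not cover the small differences described above. Python 3.11.15, pandas 2.3.3, numpy 2.4.6, statsmodels 0.14.6 and matplotlib 3.10.9 were used.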

Additional observations from a re-analysis of the deposited data

How the results depend on the processing

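With 1 array per group, only counting and scaling choices could be varied, and the difference between embryos is unknown. Medians counted as moved when they shifted by more than the pooled spread between probe sets of a gene divided by the square root of the number of genes. Scaling to the spiked controls gave 6 members at least 2-fold higher in matUPD18 and medians of 0.68 (fibrillar), 0.66 (basement membrane) and 0.54 (other), and turned 15 of 37 member genes from below to above 0. The basement membrane median was 0.33 with the measurable limit at the 75th percentile, 0.25 as the median over measurable probe sets and 0.24 without probe sets that may match several transcripts. At 1.5-fold the counts were 3 and 2. The count of members past 2-fold was 0 in each direction under the other alternatives run. The difference between the fibrillar and basement membrane medians ran from -0.13 to 0.10 and had no settled sign. Of 37 genes, 34 kept their sign under every alternative in which they were measurable, other than the spiked controls; Col18a1, Col6a2 and Sparc did not. At the 75th percentile limit 22 genes were measurable. The causes were not tested. No paired analysis was possible because each group has 1 array.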
